A study of Mus musculus with 6 samples.

Results

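The 10 genes described here belong to the macrophages of the thymus and to their work of clearing dead cells. They are the 3 chains of the complement protein C1q (C1qa, C1qb and C1qc), 3 receptors for dying cells (Mertk, Axl and Timd4), and 4 genes of macrophage identity and equipment (Csf1r, Adgre1, Lyz2 and Mpeg1). They were picked out of a matrix of raw counts by gene symbol. All 10 were found among its 55536 genes, and all 10 were among the 18690 genes with enough counts to be tested. The matrix comes from thymocytes (T cells still maturing in the thymus) of 6 untreated mice in steady state. Per the labels, 3 mice were wildtype (Il3ra+/+) and 3 lacked the alpha chain of the interleukin-3 receptor (Il3ra-/-), with 1 library per mouse. The sources used here do not give the strain, age or sex of the mice or the construction of the allele. Libraries are called wildtype 1 to 3 and labelled knockout 1 to 3.

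Total counts were 55747682 to 82684219 per library, and levels are given as CPM, which are counts scaled to the library total after TMM adjustment. Il3ra, the targeted gene, had 465, 376 and 399 counts in wildtype and 481, 673 and 514 counts in the labelled knockout, so it does not check the genotype labels, and directions below are those of the labels. Rag1, which starts antigen receptor rearrangement in thymocytes, stood at 2808 to 4022 CPM over the 6 libraries. Replicate 1 of each genotype stood apart by Xist, the RNA that coats an inactive X chromosome, with 88078 counts in wildtype 1 and 128236 in labelled knockout 1 against 8 to 57 in the other 4. Labelled knockout 3 stood apart by its neutrophil genes, whose 9 listed members summed to 425 CPM there and to 33.7 to 106.5 CPM in the other 5 libraries.

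Most thymocytes die during selection, and resident macrophages remove them before their contents leak. This removal, called efferocytosis, starts with recognition of phosphatidylserine on the dying cell. Timd4 binds that lipid directly, Mertk and Axl bind it through the bridging proteins Gas6 and protein S, and C1q coats cell debris. Csf1r, the receptor for the growth factor CSF1, keeps macrophages alive, and Adgre1 encodes the surface marker F4/80. Lyz2 encodes lysozyme M and Mpeg1 encodes perforin-2, a pore-forming protein of phagocytes. Lyz2 is also made by monocytes and neutrophils, and Axl, Csf1r and Mpeg1 also by some monocytes or dendritic cells.

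The sequence before the start of each gene is shown for the members whose upstream window held a short motif of macrophage regulators. The choice was by motif and not by how the genes moved across mice. RefSeq's promoter table for GRCm38.p6 matched 7 of the 10 members. The 250 bases before each RefSeq start were searched on both strands for GGAAGT, the core bound by PU.1, the master regulator of macrophages, for TGCTGA, a MAF half-site, and for TGACTCA, an AP-1 site. Capitals mark the matches, sequences run 5′ to 3′ on the gene's strand, and bases after the first annotated start were left out, so some windows are shorter. The window of C1qb lies at chr4:136886201-136886450 (minus strand), C1qc at chr4:136893066-136893164 (minus), Lyz2 at chr10:117282322-117282522 (minus) and Timd4 at chr11:46810549-46810798 (plus).
C1qb: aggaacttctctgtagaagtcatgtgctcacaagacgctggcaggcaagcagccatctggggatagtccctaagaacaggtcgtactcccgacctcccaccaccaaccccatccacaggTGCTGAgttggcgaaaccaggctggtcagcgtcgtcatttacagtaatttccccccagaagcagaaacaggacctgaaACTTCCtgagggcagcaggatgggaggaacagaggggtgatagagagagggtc
C1qc: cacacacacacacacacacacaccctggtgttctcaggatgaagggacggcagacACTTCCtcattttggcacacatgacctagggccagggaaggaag
Lyz2: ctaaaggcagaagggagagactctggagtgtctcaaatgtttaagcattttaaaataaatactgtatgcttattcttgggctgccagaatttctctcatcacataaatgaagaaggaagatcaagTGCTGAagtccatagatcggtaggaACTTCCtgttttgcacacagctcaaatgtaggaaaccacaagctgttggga
Timd4: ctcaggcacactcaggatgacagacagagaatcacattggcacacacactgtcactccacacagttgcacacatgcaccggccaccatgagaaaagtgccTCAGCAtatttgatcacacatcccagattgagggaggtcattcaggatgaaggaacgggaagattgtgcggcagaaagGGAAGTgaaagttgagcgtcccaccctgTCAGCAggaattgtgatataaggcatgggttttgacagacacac
A PU.1-type match was present in these 4 of the 7 windows, against 20.0% of 27025 promoters in the table. A MAF half-site was present in C1qb, Lyz2 and Timd4, against 15.8% of promoters; no window of the 7 held the AP-1 letters, found in 4.43% of promoters. The windows of Mertk, Axl and Mpeg1 held none of the 3 motifs. These matches are letters in a window and no measurement of binding.

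The 3 C1q chains, which assemble into 1 complex and lie side by side on chromosome 4, showed no genotype difference that passed the test and moved together across mice. C1qa (ENSMUSG00000036887, GRCm38 chromosome 4, 136895917 to 136898803, minus strand) stood at 13.03, 9.07 and 9.82 CPM in wildtype 1, 2 and 3 and at 6.96, 14.6 and 14.2 CPM in labelled knockout 1, 2 and 3. C1qb (ENSMUSG00000036905, 136880129 to 136886187) stood at 13.6, 9.45 and 8.11 CPM in wildtype and at 6.20, 13.1 and 14.3 CPM in the labelled knockout. C1qc (ENSMUSG00000036896, 136889804 to 136893065) stood at 15.01, 11.1 and 10.1 CPM and at 6.11, 15.4 and 15.3 CPM in the same order. All 3 chains were lowest in labelled knockout 1, and the 3 wildtype libraries lay between that library and labelled knockout 2 and 3 for C1qa and C1qc. The wildtype means were 10.6 ± 2.1 CPM for C1qa, 10.4 ± 2.8 CPM for C1qb and 12.05 ± 2.6 CPM for C1qc (SD, n = 3). Means in the labelled knockout were 11.9 ± 4.3, 11.2 ± 4.4 and 12.3 ± 5.3 CPM.
The fitted folds of labelled knockout over wildtype were 1.12 for C1qa, 1.08 for C1qb and 1.02 for C1qc. Their 95% intervals of 0.744 to 1.70, 0.648 to 1.80 and 0.576 to 1.80 hold both a drop and a rise (quasi-likelihood test of edgeR, Benjamini-Hochberg adjusted p = 0.810, 0.905 and 0.981). In bulk RNA, fewer macrophages and less of their RNA per cell cannot be told apart, here and for every gene below.

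Axl and Mertk, receptor tyrosine kinases of the same TAM family, kept a near-fixed ratio to each other while their level changed between mice. Axl (ENSMUSG00000002602, chromosome 7, 25757273 to 25788705, minus strand) stood at 12.8, 8.60 and 7.88 CPM in wildtype 1 to 3 and at 7.47, 16.2 and 17.0 CPM in labelled knockout 1 to 3. Mertk (ENSMUSG00000014361, chromosome 2, 128698956 to 128802894, plus strand) stood at 0.922, 0.675 and 0.521 CPM and at 0.545, 1.35 and 1.15 CPM. For both receptors labelled knockout 2 and 3 were above all wildtype libraries, while labelled knockout 1 lay below all wildtype libraries for Axl and between wildtype 2 and 3 for Mertk. Axl counts were 12.03 to 15.1 times Mertk counts in every library, a range of 1.26-fold, although Axl itself varied 2.28-fold among the labelled knockout libraries. The folds of 1.39 for Axl (95% interval 0.829 to 2.34) and 1.44 for Mertk (0.813 to 2.56) did not pass edgeR's test (adjusted p = 0.540 and 0.549).

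Timd4, the phosphatidylserine receptor of resident macrophages, was the only member whose genotypes did not overlap. Its counts were few, at 28, 22 and 43 in wildtype 1 to 3 and 58, 61 and 69 in labelled knockout 1 to 3. Timd4 (ENSMUSG00000055546, chromosome 11, 46810800 to 46844332, plus strand) thus stood at 0.470, 0.381 and 0.659 CPM in wildtype and at 0.958, 0.727 and 0.992 CPM in the labelled knockout. Every labelled knockout library, including the one that was lowest for the C1q chains, was above every wildtype library. The fold was 1.76 (95% interval 1.07 to 2.90), with an unadjusted p of 0.0288 and a Benjamini-Hochberg adjusted p of 0.286 in edgeR's test, so the difference did not pass over all genes. Of all tested genes, 20.3% had genotypes that did not overlap, 10.9% with the labelled knockout higher. An unadjusted p under 0.05 was reached by 14.6% of them, 8.01% with the labelled knockout higher.

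Csf1r and Adgre1 were highest in labelled knockout 3, as was C1qb. Unlike the C1q chains, both stood well above their level in labelled knockout 2 there. Csf1r (ENSMUSG00000024621, chromosome 18, 61100598 to 61132149, plus strand) stood at 7.36, 4.91 and 6.44 CPM in wildtype 1 to 3 and at 4.61, 7.11 and 13.7 CPM in labelled knockout 1 to 3. Adgre1 (ENSMUSG00000004730, chromosome 17, 57358691 to 57483527, plus strand) stood at 2.78, 1.38 and 2.24 CPM and at 1.25, 3.24 and 4.73 CPM. Labelled knockout 2 was within the wildtype range for Csf1r and above it for Adgre1. The folds of 1.36 for Csf1r (95% interval 0.747 to 2.47) and 1.44 for Adgre1 (0.735 to 2.83) did not pass edgeR's test (adjusted p = 0.632 and 0.613). Without labelled knockout 3 the log2 fold of Csf1r went from 0.44 to -0.09 and that of Adgre1 from 0.53 to 0.08. Csf1r overlaps Hmgxb3 on the opposite strand, and the sources used here do not give the strand setting of the counting.

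Lyz2 and Mpeg1 had the steadiest wildtype levels of the 10 genes and the widest spread in the labelled knockout. Lyz2 (ENSMUSG00000069516, chromosome 10, 117277331 to 117282321, minus strand) stood at 51.8, 43.7 and 39.8 CPM in wildtype 1 to 3 and at 30.0, 44.9 and 143.9 CPM in labelled knockout 1 to 3. Mpeg1 (ENSMUSG00000046805, chromosome 19, 12460779 to 12465283, plus strand) stood at 28.3, 26.9 and 26.0 CPM and at 15.9, 40.8 and 77.9 CPM. Highest over lowest was 1.30-fold for Lyz2 and 1.09-fold for Mpeg1 in wildtype, and 4.79-fold and 4.91-fold in the labelled knockout.
The folds of 1.62 for Lyz2 (95% interval 0.451 to 5.80) and 1.66 for Mpeg1 (0.539 to 5.11) did not pass edgeR's test (adjusted p = 0.702 and 0.649). Without labelled knockout 3 the log2 fold of Lyz2 went from 0.69 to -0.27 and that of Mpeg1 from 0.73 to 0.07. The neutrophil genes named above were also highest in labelled knockout 3, and their part in the Lyz2 level was not tested. Lyz1, a near-identical neighbour of Lyz2, had 51 to 304 counts and was likewise highest there, so reads of the pair may be shared.

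**Figure D1:**
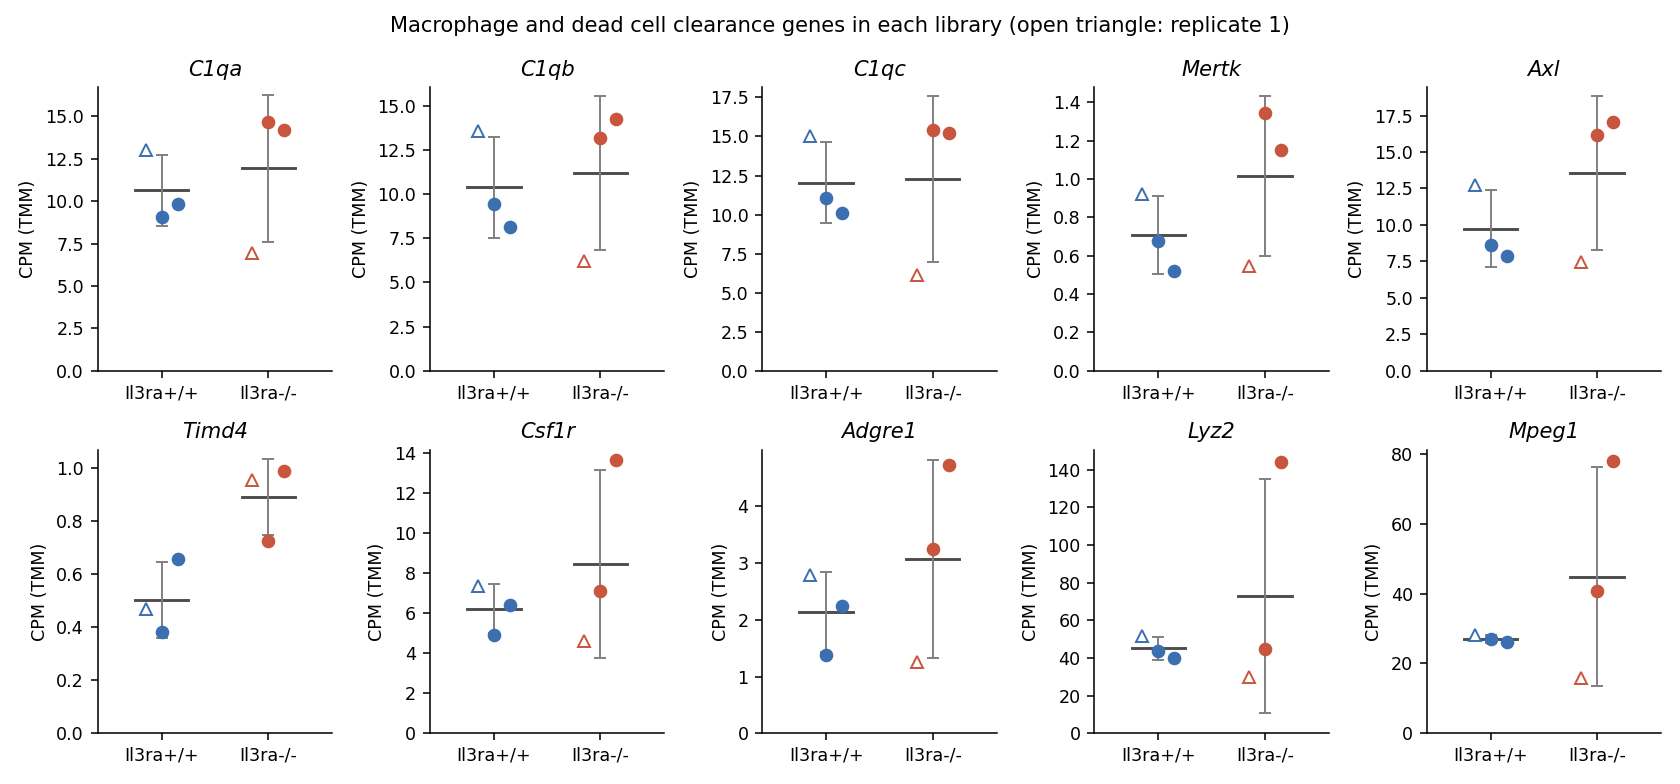
CPM of each of the 10 genes (vertical axis, linear, from 0) in 3 wildtype and 3 labelled knockout libraries; each point is 1 library, the open triangle is replicate 1, horizontal lines are means and bars are SD. Timd4 alone has no overlap between genotypes, and in 8 of 10 panels the lowest point is labelled knockout replicate 1.

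Read together, 0 of the 10 genes passed the genotype test in either direction, against 0.0910% of all tested genes (3 higher, which is 0.0161%, and 14 lower of 18690). At an unadjusted p under 0.05 edgeR's test called 1 member, Timd4, and DESeq2 also called 1. At its adjusted threshold DESeq2 called 3.23% of genes (2.06% higher) and 0 members. It gave no adjusted p for Timd4 or Mertk, so neither could be called. All 10 fitted folds were above 1, where 51.2% of tested genes were above 1. The median log2 fold of the members was 0.50, a fold of 1.42, beside 0.01 over all genes. Without labelled knockout 3 that median was 0.05, and without labelled knockout 1 it was 0.77.

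Much of the variation in these genes lay between mice of the labelled knockout group. The SD of log2(CPM + 0.1) had a median over the members of 0.32 in wildtype and 0.71 in the labelled knockout, beside 0.18 and 0.18 over all tested genes. It was larger in the labelled knockout for 9 of 10 members, all but Timd4, and for 51.2% of tested genes. For Lyz2 and Mpeg1, 99.0% and 98.9% of tested genes had a smaller SD in the labelled knockout.

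The libraries took a recurring order. Labelled knockout 1 was the lowest of the 6 for 8 members, all but Mertk and Timd4. Labelled knockout 3 was the highest for 7 members, and labelled knockout 2 for the other 3 (C1qa, C1qc and Mertk). Within wildtype, replicate 1 was highest for 9 members, all but Timd4. With library totals in place of TMM factors, labelled knockout 3 was highest for 5 members, labelled knockout 2 for 4 and labelled knockout 1 for Timd4, and the count of members lowest in labelled knockout 1 was again 8.

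Pearson correlations of log2(CPM + 0.1) over the 6 libraries describe how closely the genes followed each other. These points share their libraries, so the values are given as a description. The median over the 45 pairs was 0.812, with a range of -0.24 to 0.976. The 3 pairs of C1q chains had r of 0.961 to 0.975. Among C1q, Mertk and Axl the median of 10 pairs was 0.930, among Csf1r, Adgre1, Lyz2 and Mpeg1 that of 6 pairs was 0.927, and between these 2 sets that of 20 pairs was 0.791. The sets were formed after the values were seen, and they were not sharply apart. Adgre1 had an r of 0.946 with Csf1r and 0.812 with Lyz2, and 0.923 with C1qa. Timd4 stood outside both, with a median r of 0.219 over its 9 pairs. Without labelled knockout 3 all 9 of its correlations were below 0, and without labelled knockout 1 all 9 were above 0, so its relation to the others rests on single libraries. The other 36 pairs were above 0 in both cases.

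**Figure D2:**
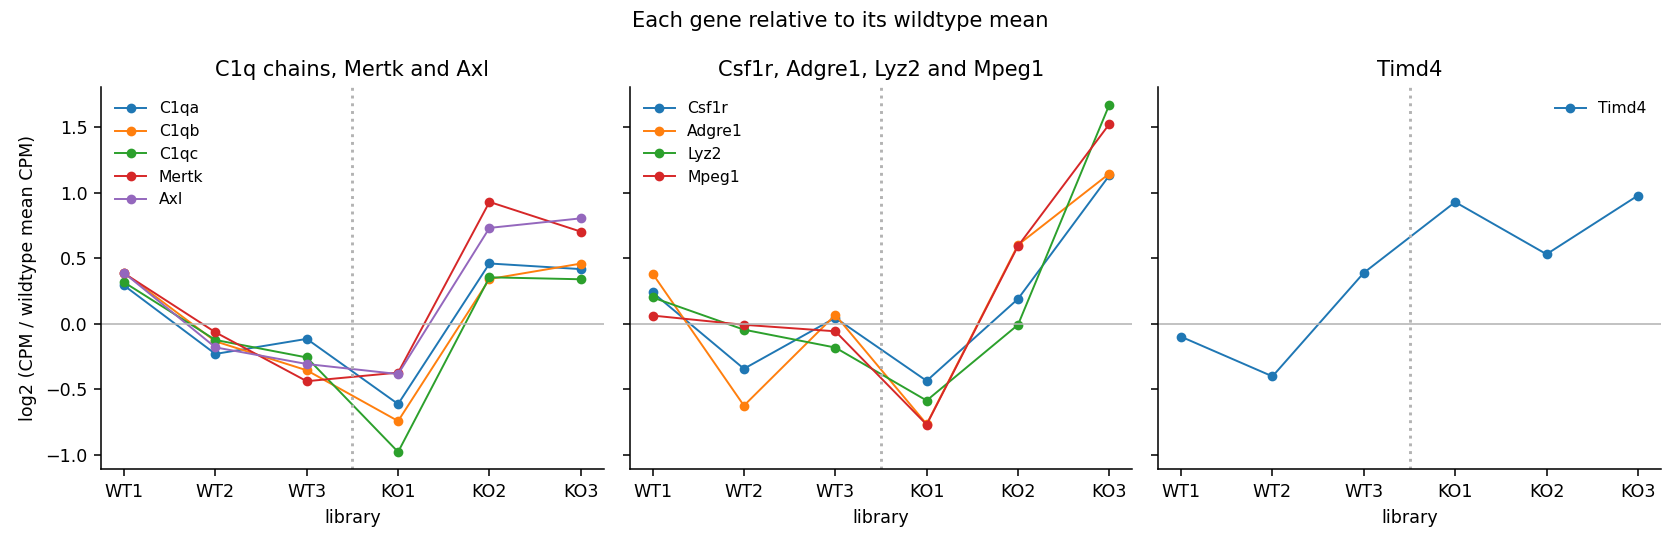
Log2 of each gene's CPM over its wildtype mean CPM (vertical axis) in the 6 libraries (WT, wildtype; KO, labelled knockout); lines only join the points of 1 gene and the replicates have no order. The C1q chains, Mertk and Axl reach similar heights in labelled knockout 2 and 3, Csf1r, Adgre1, Lyz2 and Mpeg1 peak in labelled knockout 3, and Timd4 is above its wildtype mean in all 3 labelled knockout libraries.

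Ratios of counts within a library, which do not depend on scaling, showed a similar grouping. For each C1qa count there were 0.825 to 1.04 C1qb counts and 0.879 to 1.22 C1qc counts in the 6 libraries. Axl gave 0.802 to 1.20 counts for each C1qa count and Mertk 0.0530 to 0.0919. Lyz2 gave 3.06 to 4.82 counts in 5 libraries and 10.1 in labelled knockout 3. Mpeg1 gave 2.17 to 2.97 counts in those 5 libraries and 5.48 in labelled knockout 3, and Csf1r gave 0.486 to 0.663 and 0.963. Adgre1 gave 0.153 to 0.228 counts in those 5 libraries and 0.333 in labelled knockout 3. Timd4 gave 0.0360 to 0.0698 counts in 5 libraries and 0.138 in labelled knockout 1. Thus labelled knockout 3 held more Lyz2, Mpeg1, Csf1r and Adgre1 per C1qa than any other library, and labelled knockout 1 more Timd4. Axl per C1qa was also highest in labelled knockout 3, at 1.20 beside 0.802 to 1.11 in the others, so the grouping was not sharp.

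Per kilobase of exon, Lyz2 was the most abundant of the 10 transcripts and Mertk and Timd4 the least. Mean levels in wildtype, in CPM per kilobase, were 34.3 for Lyz2, 10.2 for C1qa, 9.54 for C1qb, 6.24 for C1qc and 6.24 for Mpeg1. They were 1.94 for Axl, 1.08 for Csf1r, 0.659 for Adgre1, 0.232 for Timd4 and 0.163 for Mertk. In the labelled knockout the corresponding means were 55.4, 11.5, 10.3, 6.35 and 10.4, and then 2.70, 1.47, 0.9497, 0.411 and 0.234. The neighbours C1qa and C1qb lay within the spread of their libraries, and so in wildtype did C1qc and Mpeg1, and Timd4 and Mertk. In the labelled knockout every Timd4 library was above every Mertk library. In the labelled knockout the mean of Mpeg1 came above that of C1qc, with overlapping libraries.

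The genotype difference of these genes had opposite signs in the Xist-low and Xist-high libraries. Among the 4 Xist-low libraries, both labelled knockout libraries were above both wildtype libraries for all 10 members, with fitted folds of 1.45 (C1qc) to 2.26 (Lyz2). Between the 2 Xist-high libraries, labelled knockout 1 was below wildtype 1 for 9 members, with folds of 0.407 (C1qc) to 0.626 (Csf1r), and above it for Timd4, with a fold of 2.04. The pattern of a higher level in one set and a lower level in the other was met by 9 of 10 members and by 17.0% of all tested genes. At least 17.0% of all tested genes thus met its Xist-low part, for which no separate share is given here.
A genotype by Xist group interaction, added after the data were seen, tested the difference between the 2 folds with 2 residual degrees of freedom. Both of these come from the Xist-low libraries. The Xist-high fold compares 1 library with 1 and has no spread of its own, so the test assumes that those 2 libraries vary like the other 4. The test was passed by 4 of 10 members, against 0.685% of all tested genes (0.508% with a difference below 0). At an unadjusted p under 0.05 there were 8 of 10 members, against 20.7% of genes. The differences in log2 fold, Xist-high minus Xist-low, were -1.52 for C1qa, -1.77 for C1qb, -1.83 for C1qc and -1.79 for Axl, with standard errors of 0.24, 0.26, 0.23 and 0.24 (edgeR, Benjamini-Hochberg adjusted p = 0.0266, 0.0159, 0.00783 and 0.0101). Mertk at -1.82, Csf1r at -1.54 and Adgre1 at -2.28 did not pass (adjusted p = 0.132, 0.179 and 0.0697), nor did Lyz2 at -1.96 and Mpeg1 at -2.00 (adjusted p = 0.551 and 0.221). Timd4 had a difference of 0.31 (adjusted p = 0.837), which turned to -0.14 without wildtype 3. The calls depend on single libraries, for the members as for all genes. Without wildtype 2 or wildtype 3, 0 members passed (0.114% and 0.209% of all genes). Without labelled knockout 2 there were 8 (7.35% of genes), without labelled knockout 3 there were 7 (3.06%), and limma-voom called 2 (0.171%). Each genotype has 1 Xist-high library, so the Xist group and a departure of wildtype 1 or labelled knockout 1 alone cannot be told apart.

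With both Xist-high libraries left out, 4 of the 10 members were higher in the labelled knockout, against 3.98% of genes called in that comparison of 2 libraries with 2 (394 higher, which is 2.06%, and 368 lower). These were C1qa (log2 fold 0.61, adjusted p = 0.0425), C1qb (0.64, 0.0444), C1qc (0.54, 0.0498) and Axl (1.01, 0.0145) in edgeR's test. The median log2 fold of the 10 members was 0.94 in these 4 libraries. In the full comparison none of the 4 passed. Wildtype 1 was the highest wildtype library for 9 members, and labelled knockout 1 the lowest labelled knockout library for the same 9. Leaving out this pair therefore moves the groups apart for those members, so these calls are no separate support for a genotype difference.

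**Figure D3:**
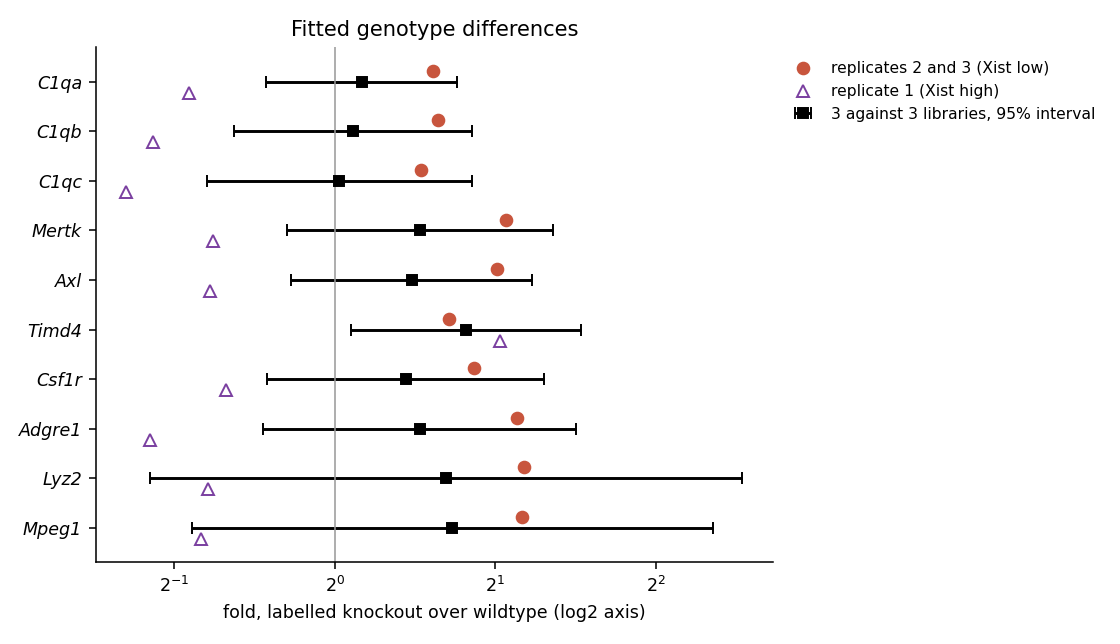
Fold of labelled knockout over wildtype (horizontal log2 axis) for each of the 10 genes: squares are the fit of 3 against 3 libraries with 95% intervals, filled circles the fit in replicates 2 and 3, and open triangles that in replicate 1. Circles lie above 1 for all 10 genes and triangles below 1 for all but Timd4.

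Other genes of dead cell clearance were read from 7 lists, and none of their 94 tested members passed the genotype test in edgeR. DESeq2 called 3 of the 94 (3.19%, beside 3.23% of all genes), among them Cd93 and Ppard. Without the low-count filter edgeR called 5 of 102 (4.9%, beside 2.53% of all genes), among them Cd93, Scarb1 and Lrp1. Of the 18 tested receptors for dying cells, 13 had a fold above 1, with a median log2 fold of 0.45. Cd93, a surface receptor with a proposed link to C1q, stood at 5.37, 6.46 and 5.36 CPM in wildtype and 6.82, 8.94 and 10.7 CPM in the labelled knockout (fold 1.54, edgeR adjusted p = 0.185). Scarb1, a scavenger receptor for lipoproteins and phosphatidylserine, stood at 21.05, 15.6 and 16.1 CPM and 24.1, 21.6 and 27.3 CPM (fold 1.38, adjusted p = 0.190). Tyro3, the third TAM receptor, stood at 2.63, 3.03 and 2.68 CPM and 3.72, 3.11 and 4.44 CPM (fold 1.35, adjusted p = 0.361). The genotypes of these 3 of the 18 receptors did not overlap, a share no higher than the 20.3% of all tested genes. Lrp1, an endocytic receptor that takes up calreticulin-marked cells, had a fold of 1.47 with overlap (adjusted p = 0.297).

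Bridging and complement proteins were balanced, with 5 of 12 tested members above 1 and a median log2 fold of -0.06. Anxa5, annexin A5, a protein that shields phosphatidylserine, stood at 87.0, 99.5 and 92.5 CPM in wildtype and 71.7, 81.3 and 66.1 CPM in the labelled knockout (fold 0.785, edgeR adjusted p = 0.185). In the engulfment machinery 9 of 14 were above 1, with a median of 0.06. Sirpa, the phagocyte receptor for the "do not eat me" signal CD47, followed the members, with 8.24, 6.13 and 6.05 CPM in wildtype and 6.39, 10.6 and 20.4 CPM in the labelled knockout (fold 1.83, adjusted p = 0.388). Vav1, an exchange factor for Rac that thymocytes also express, had a fold of 0.837 (adjusted p = 0.256).

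Lysosomal digestion genes had 8 of 18 above 1 and a median log2 fold of -0.03, and 15 of the 18 were lowest in labelled knockout 1, as 8 of the 10 members were. Dnase2a, the lysosomal nuclease that degrades DNA of engulfed cells, stood at 3.35, 3.46 and 3.51 CPM in wildtype and 3.65, 4.50 and 5.72 CPM in the labelled knockout (fold 1.34, edgeR adjusted p = 0.361). It overlaps Mast1 on the opposite strand. Acp5, a lysosomal acid phosphatase, had a fold of 0.817 (adjusted p = 0.265). Of the lipid-sensing nuclear receptors and targets 3 of 9 were above 1, with Ppard, a fatty acid receptor, at a fold of 0.783 (adjusted p = 0.162) and Nr1h2, the oxysterol receptor LXR beta, at 0.844 (adjusted p = 0.287).

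The macrophage transcription factors and CSF1 axis had 9 of 11 genes above 1, with a median log2 fold of 0.49. Maf stood at 4.44, 5.05 and 5.27 CPM in wildtype and 5.47, 7.85 and 8.74 CPM in the labelled knockout, without overlap (fold 1.495, edgeR adjusted p = 0.222). Spic, a factor of iron-handling macrophages, stood at 0.620, 0.294 and 0.598 CPM and 0.413, 1.33 and 1.22 CPM (fold 1.97, adjusted p = 0.357). Among 12 genes of the dying cell's own surface and signals, 8 were above 1. Panx1, a channel that releases find-me signals, had a fold of 0.830 (edgeR adjusted p = 0.226).

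Of 18 further macrophage markers tested, 16 had a fold above 1 and 16 were highest in labelled knockout 3. Their summed level was 51.8, 38.7 and 37.2 CPM in wildtype 1 to 3 and 31.3, 59.5 and 78.1 CPM in labelled knockout 1 to 3. Cd163, the haemoglobin scavenger receptor, stood at 2.52, 1.70 and 1.87 CPM in wildtype and 2.69, 4.92 and 5.06 CPM in the labelled knockout, without overlap (fold 2.09, edgeR adjusted p = 0.151). DESeq2 called it, and so did edgeR without labelled knockout 1. Mrc1, the mannose receptor, had a fold of 1.62 (adjusted p = 0.258), and Cd5l, a secreted protein of tissue macrophages, one of 3.10 (adjusted p = 0.318).
In the interaction described above, all 18 markers had a difference below 0, with a median of -1.49. Over all genes 9536 of 18690 were below 0, with a median of -0.01. The same sign was found in markers of other cells, in 7 of 7 monocyte (median -2.20), 10 of 10 dendritic cell (-1.17), 9 of 9 B cell (-1.30), 9 of 9 neutrophil (-1.76) and 7 of 7 epithelial markers (-1.25), none of which passed. Without passing, 4 of 4 endothelial (-1.18), 4 of 5 erythroid (-0.55) and 1 of 2 fibroblast markers (0.09) were also below 0. Of the 12 thymocyte markers 3 were below 0 (median 0.18). The macrophage markers that passed were 4, chosen for naming after their values were seen: Slc40a1, the iron exporter, at -2.35 (adjusted p = 0.0159), Vcam1, an adhesion molecule, at -1.63 (adjusted p = 0.0275), Fcer1g, a signalling chain of Fc receptors, at -2.06 (adjusted p = 0.0383) and Cx3cr1, the fractalkine receptor, at -2.29 (adjusted p = 0.0450). Ctss, the lysosomal protease cathepsin S, also passed at -1.15 (adjusted p = 0.0458). Cx3cr1 overlaps several well-expressed genes, so its count is uncertain.

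Markers of other cells moved with the members in part. Monocyte markers summed to 173.5, 163.1 and 143.0 CPM in wildtype and 108.2, 147.2 and 191.6 CPM in the labelled knockout, most of it F13a1, a clotting factor subunit. F13a1 itself went the other way, at 136.5, 134.2 and 119.3 CPM in wildtype and 90.9, 114.9 and 112.8 CPM in the labelled knockout. Its genotypes did not overlap (fold 0.817, edgeR adjusted p = 0.263). Dendritic cell markers summed to 76.4 to 90.0 CPM in wildtype and 66.3, 94.2 and 117.2 CPM in the labelled knockout. B cell markers summed to 52.4 to 57.5 CPM and 36.6, 61.1 and 75.4 CPM. All 3 lists were thus lowest in labelled knockout 1 and highest in labelled knockout 3, with 5 of 7, 7 of 10 and 7 of 9 members highest there. Ccr2, the monocyte chemokine receptor, stood at 6.54, 4.71 and 4.86 CPM and 5.38, 8.88 and 16.2 CPM, and Siglech, a plasmacytoid dendritic cell receptor, at 2.16, 4.603 and 2.54 CPM and 3.01, 7.04 and 21.9 CPM (edgeR adjusted p = 0.312 and 0.434). Of the 10 dendritic cell markers 6 had a fold above 1. The 4 with a fold below 1 included Xcr1 (fold 0.717, edgeR adjusted p = 0.434) and Ccr7 (fold 0.876). Ccr7, at 24.6 to 41.3 CPM, and Bst2, at 23.8 to 37.0 CPM, were the largest parts of the dendritic cell sum.

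Neutrophil markers had another order. All 9 were highest in labelled knockout 3 and none was lowest in labelled knockout 1, and the list summed to 71.5, 106.5 and 33.7 CPM in wildtype and 74.5, 36.3 and 425 CPM in the labelled knockout. S100a8, a calcium-binding protein of granulocytes, stood at 6.27 to 19.8 CPM in wildtype and 15.6, 7.35 and 79.1 CPM in the labelled knockout, and its partner S100a9 at 10.1 to 34.6 CPM and 24.4, 11.9 and 129.9 CPM. The early granule genes Elane (4.86 CPM) and Mpo (11.7 CPM) were also highest in labelled knockout 3. In labelled knockout 2, where the neutrophil list was at 36.3 CPM, C1qa, C1qc, Axl, Mertk, Timd4, Adgre1 and Mpeg1 were above all wildtype libraries, and C1qb, Csf1r and Lyz2 were within the wildtype range. Endothelial markers summed to 1.35 to 1.69 CPM in wildtype and 1.69, 2.40 and 5.20 CPM in the labelled knockout, led by Cdh5, VE-cadherin (fold 3.51, adjusted p = 0.195).
Epithelial markers summed to 18.2 to 26.1 CPM over the 6 libraries, fibroblast markers to 0.909 to 2.25 CPM and erythroid markers to 3.37 to 57.6 CPM. The defining genes Foxn1 (thymic epithelium) and Pdgfra (fibroblasts) had at most 16 and 3 counts in any library. The thymocyte list summed to 14400, 16300 and 15260 CPM in wildtype and 13620, 13020 and 12820 CPM in the labelled knockout, and 11 of its 12 genes had a fold below 1 without passing the test. Cd8b1 and Cd4, the coreceptor genes, had folds of 0.811 and 0.813 (edgeR adjusted p = 0.235 and 0.253). The part of any of these cell types in the members' levels was not tested.

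**Figure D4:**
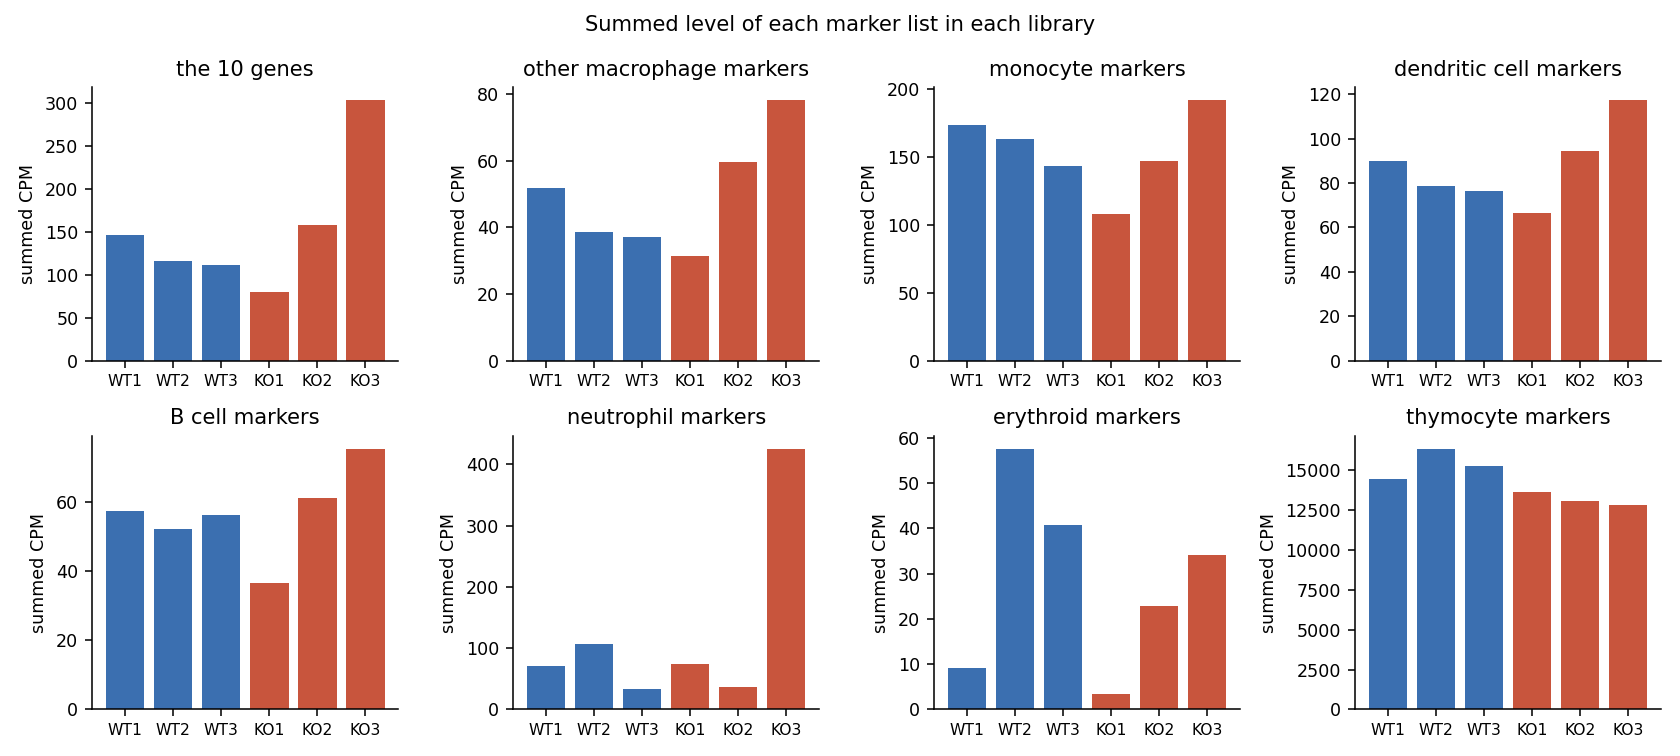
Summed CPM (vertical axis, from 0) of the 10 genes and of 7 marker lists in each library (blue, wildtype; red, labelled knockout). The 10 genes and the macrophage, monocyte, dendritic cell and B cell lists are lowest in labelled knockout 1 and highest in labelled knockout 3, while the neutrophil list is high in labelled knockout 3 only and the thymocyte list is lower in all 3 labelled knockout libraries.

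The genes whose profile was most like the mean of the members were sought among 9137 protein-coding genes with a mean of at least 5 CPM. The members' mean log2 CPM was 2.93, 2.47 and 2.56 in wildtype 1 to 3 and 2.21, 3.13 and 3.57 in labelled knockout 1 to 3. Over these 6 libraries the highest Pearson r were those of Glrx (0.995), Tlnrd1 (0.995), Acsf2 (0.993), Ndufb11 (0.993), Rer1 (0.991), H2-DMa (0.991), Armc9 (0.990), Vcam1 (0.989), Skap2 (0.988) and Ier3ip1 (0.988). Of the eligible genes 282, or 3.09%, reached an r of at least 0.9. The ratio of the highest to the lowest library was 1.14 for Rer1, 1.92 for Glrx and 2.65 for Vcam1, the smallest and the 2 largest of the 10, beside 2.28 for Axl. H2-DMa, a chaperone of MHC class II loading, and Vcam1 are genes of antigen-presenting or stromal cells and macrophages, but H2-DMa and Ndufb11 overlap highly expressed neighbours, so their counts are uncertain.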

How the data were processed

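RNA of thymocytes was isolated with a column kit and made into libraries with a stranded messenger RNA kit, per the labels' protocols. The submitters' processing notes name STAR 2.5.4b, featureCounts and the build GRCm38, and the sources used here give neither the annotation release nor the strand and multi-mapping settings. The authors deposited raw, unnormalised counts per gene, per the file headers. All 55536 identifiers matched GENCODE M21.

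Genes were filtered with filterByExpr (18690 remained), scaled by TMM and compared with edgeR 4.0.16 (quasi-likelihood, robust, R 4.3.3, no covariate, Benjamini-Hochberg over all genes, threshold 0.05). DESeq2 1.42.0 and limma 3.58.1 (voom) were alternatives, beside other scalings, other filters, a replicate block and the omission of each library. The edgeR script was tested on simulated data. CPM are TMM-scaled, and CPM per kilobase use the summed exon length of each gene. Correlations used a pseudocount of 0.1 CPM. A count of 0 would allow 3 counts, which is 0.0358 to 0.0519 CPM, and such floors cover counting error only. The interaction and the Xist covariate were chosen after seeing the data. Named genes were the 10 members, Il3ra, up to 4 genes of smallest p in each list, and the 10 genes most like the members' mean. Rag1, Lyz1, Xist, Foxn1 and Pdgfra, and the 5 list genes past the interaction, were named besides. The members and lists were chosen with earlier results of these data known. Libraries of a genotype come from different mice and differed beyond sampling noise (chi-square over its degrees of freedom 48.6 to 114), so p-values measure the spread between these mice. No sample was dropped from the main comparison. Some genes are not reported here.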

Additional observations from a re-analysis of the deposited data

Results flagged for a closer look

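The genotype difference of 4 members differed between the Xist-high pair (replicate 1 of each genotype) and the Xist-low libraries by the interaction test in edgeR. The log2 fold of labelled knockout over wildtype in the Xist-high pair minus that in the Xist-low libraries was -1.52 for C1qa, -1.77 for C1qb, -1.83 for C1qc and -1.79 for Axl. The log2 folds behind them were -0.91 and 0.61 for C1qa, -1.13 and 0.64 for C1qb, -1.30 and 0.54 for C1qc, and -0.77 and 1.01 for Axl, in the Xist-high pair and the Xist-low libraries. The test was added after the pattern was seen, and 0 members passed it without wildtype 2 or without wildtype 3. The Xist-high pair holds 1 library of each genotype, so its fold has no spread of its own, the 2 residual degrees of freedom come from the Xist-low libraries, and a departure of a single mouse cannot be told apart from the Xist group.
Of the 177 tested list genes, Slc40a1 (-2.35), Vcam1 (-1.63), Fcer1g (-2.06), Cx3cr1 (-2.29) and Ctss (-1.15) passed the same test with differences of the same sign. Over all tested genes, members and list genes included, 0.685% passed it.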

How the results depend on the processing

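No member passed the genotype test under DESeq2, limma-voom, RLE or upper-quartile scaling, either filter (the stricter one kept 8 members), the replicate block, the Xist covariate or the omission of any 1 library. Leaving out both Xist-high libraries moves the groups apart for 9 members, as described above. In that setting 4 members passed, and the members' median log2 fold was 0.94. That median was 0.048 to 0.77 with 1 library left out. Over all genes, 17 calls (3 higher, 14 lower) became 604 (385 and 219) with DESeq2, 840 (531 and 309) without the low-count filter, 9 (1 and 8) with the replicate block, 762 (394 and 368) without the Xist-high libraries, and 8 (1 and 7, without wildtype 2) to 29 (15 and 14, without labelled knockout 1) with 1 library left out. Same-numbered libraries showed no strong shared deviation from their genotype mean over the tested genes (r = -0.11, 0.03 and -0.12). With 3 libraries per genotype this cannot tell whether the replicate numbers pair the mice, and replicate 1 of both genotypes shares high Xist. The median r of member pairs was 0.760 to 0.838 with 1 library left out. Members past the interaction were 2 with limma-voom and 0 to 8 with 1 library left out. The cause of these changes was not tested.

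The log2 fold of C1qc turned to -0.031 with limma-voom, -0.049 with the replicate block and -0.049 with the Xist covariate. With 1 library left out, log2 folds ranged from -0.0019 to 0.44 for C1qa, -0.10 to 0.40 for C1qb, -0.17 to 0.35 for C1qc, -0.087 to 0.74 for Csf1r, -0.27 to 1.06 for Lyz2, -0.18 to 1.87 for S100a8, -0.26 to 1.88 for S100a9, -0.0061 to 0.39 for Ctss, -0.23 to 0.55 for Fcer1g, -0.031 to 0.58 for Cx3cr1, and the interaction difference of Timd4 from -0.14 to 0.67. Depth limits Timd4 and Mertk most, at 22 to 69 and 33 to 113 counts per library.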
